A study of Mus musculus with 15 samples.

Results

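The regions described here are distal stretches of chromatin that carried dimethylated lysine 4 of histone H3 (H3K4me2) both in the newborn mouse lens and in αTN4 cells, and in αTN4 cells whether or not Pax6 had been knocked down. They were chosen by peak overlap. An H3K4me2 peak of control αTN4 cells was taken when it shared at least 1 bp with an H3K4me2 peak of the lens and with one of the Pax6 shRNA cells, lay more than 2 kb from every annotated start of a protein-coding transcript (mm9), and had no H3K4me3 peak of the control cells within 2 kb. Of 66274 control H3K4me2 peaks, 6214 (9.38%) met the rule, and they covered 8.044 Mb. They were 14.4% of the 43194 distal control peaks and 24.1% of the 25774 peaks shared by the 3 lists.

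αTN4 is a mouse lens epithelial cell line transformed by the SV40 T antigen, and the cells carried either a control shRNA or an shRNA against Pax6, as pools of stably infected cells rather than clones. Chromatin immunoprecipitation and sequencing (ChIP-seq) was done in both for H3K4me1, H3K4me2 and H3K4me3, and in the control cells also for Pax6 and RNA polymerase II (Pol2). The lens came from newborn CD-1 mice at postnatal day 1 and was profiled for H3K4me2. There was 1 peak list per condition, so no comparison below has a replicate check, no p-value is given, and the intervals (95%, Wilson for a share and Newcombe for a difference) cover counting error only. The lens and the cell line also differ in age, transformation, culture and cell composition, and these cannot be told apart in any difference between their lists.

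H3K4 methylation marks the regulatory DNA of animal genomes. Trimethylation is typical of active promoters, monomethylation spreads over enhancers, and dimethylation is found at both, often around sites held by transcription factors. Pax6 is the paired-domain and homeodomain factor that the lens needs from its earliest stage. CTCF, which comes up below through its recognition sequence, is a zinc-finger protein known for binding insulators and the anchors of chromatin loops, and AP-1 is the dimer of Fos and Jun proteins that responds to growth factors and stress.

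The sequences below show the regions that the results turn on. They are the plus strand of mm9, read 5′ to 3′. The first set spans 100 bp on either side of the control H3K4me2 summit, the position of highest signal, of the 3 regions that ranked highest in all 3 H3K4me2 lists at once. They lie near Tpt1 (chr14:76234913-76235113, intergenic), in an intron of Dlgap1 (chr17:71104598-71104798) and near Sesn2 (chr4:132071010-132071210, intergenic), and capitals mark the E-box CAGCTG, the site type read by basic helix-loop-helix factors.
Tpt1 region: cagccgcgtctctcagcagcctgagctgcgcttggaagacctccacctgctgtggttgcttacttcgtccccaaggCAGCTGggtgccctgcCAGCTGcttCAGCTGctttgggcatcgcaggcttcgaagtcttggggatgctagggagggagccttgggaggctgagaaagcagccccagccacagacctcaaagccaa
Dlgap1 intron region: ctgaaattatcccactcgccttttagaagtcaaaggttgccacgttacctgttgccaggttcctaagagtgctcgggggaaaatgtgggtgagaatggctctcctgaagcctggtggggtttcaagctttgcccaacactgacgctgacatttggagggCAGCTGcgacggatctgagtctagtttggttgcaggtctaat
Sesn2 region: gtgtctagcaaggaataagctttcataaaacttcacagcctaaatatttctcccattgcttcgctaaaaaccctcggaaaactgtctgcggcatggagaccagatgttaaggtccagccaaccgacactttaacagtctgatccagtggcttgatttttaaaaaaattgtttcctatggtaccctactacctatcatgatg
The Tpt1 region held 3 copies of this E-box, the Dlgap1 region 1 and the Sesn2 region none.

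The next set spans 100 bp on either side of the Pax6 summit in the 3 regions with the highest Pax6 peak significance. They are shown because Pax6 is the factor that the study knocked down, which lowered it in part. They lie in the intergenic DNA nearest to Nedd1 (chr10:92019772-92019972), upstream of Plekha1 in an annotated intron of Fgfr2 (chr7:137981652-137981852) and in an intron of Sgpp2 (chr1:78334989-78335189). The capital marks the Pax6 summit base.
Nedd1 Pax6 region: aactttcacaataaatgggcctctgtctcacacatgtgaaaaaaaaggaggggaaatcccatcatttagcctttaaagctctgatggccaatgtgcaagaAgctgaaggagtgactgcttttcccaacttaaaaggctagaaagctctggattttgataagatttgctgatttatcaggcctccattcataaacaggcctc
Fgfr2 Pax6 region: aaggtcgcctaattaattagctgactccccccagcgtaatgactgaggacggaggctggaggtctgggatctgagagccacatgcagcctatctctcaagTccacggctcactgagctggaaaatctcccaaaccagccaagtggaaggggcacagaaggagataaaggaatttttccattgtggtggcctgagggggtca
Sgpp2 Pax6 region: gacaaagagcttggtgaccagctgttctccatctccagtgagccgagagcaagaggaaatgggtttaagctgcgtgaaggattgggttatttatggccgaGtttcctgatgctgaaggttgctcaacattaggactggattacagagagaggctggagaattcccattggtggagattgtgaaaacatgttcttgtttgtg

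The last set shows where recognition sequences sat relative to the H3K4me2 summit. Among the regions whose match started 150 to 250 bp from the summit, those with the highest control enrichment were taken after their values were seen, for CTCF from the regions without control H3K4me1. The CTCF consensus examples are intergenic, near Commd9 (chr2:101746098-101746367) and Dok2 (chr14:71180732-71180998), and the AP-1 examples lie in an intron of Ralgds (chr2:28380909-28381166) and near Irf1 (chr11:53574951-53575205, intergenic). Capitals mark the CTCF match or the AP-1 word and, by itself near the right end, the summit base.
Commd9 CTCF region: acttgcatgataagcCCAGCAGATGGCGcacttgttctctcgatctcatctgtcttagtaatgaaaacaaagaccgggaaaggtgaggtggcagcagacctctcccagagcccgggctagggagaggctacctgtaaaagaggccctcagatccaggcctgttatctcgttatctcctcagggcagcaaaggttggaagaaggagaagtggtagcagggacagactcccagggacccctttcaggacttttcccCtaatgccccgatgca
Dok2 CTCF region: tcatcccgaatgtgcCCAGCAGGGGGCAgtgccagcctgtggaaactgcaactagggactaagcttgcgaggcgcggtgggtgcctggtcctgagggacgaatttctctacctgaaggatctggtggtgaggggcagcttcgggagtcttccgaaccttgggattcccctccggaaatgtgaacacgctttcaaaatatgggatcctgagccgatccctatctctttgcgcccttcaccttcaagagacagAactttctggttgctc
Ralgds AP-1 region: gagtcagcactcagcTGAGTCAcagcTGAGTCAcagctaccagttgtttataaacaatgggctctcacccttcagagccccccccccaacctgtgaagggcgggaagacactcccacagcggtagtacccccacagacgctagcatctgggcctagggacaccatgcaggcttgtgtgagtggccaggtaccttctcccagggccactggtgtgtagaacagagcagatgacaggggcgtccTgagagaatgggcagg
Irf1 AP-1 region: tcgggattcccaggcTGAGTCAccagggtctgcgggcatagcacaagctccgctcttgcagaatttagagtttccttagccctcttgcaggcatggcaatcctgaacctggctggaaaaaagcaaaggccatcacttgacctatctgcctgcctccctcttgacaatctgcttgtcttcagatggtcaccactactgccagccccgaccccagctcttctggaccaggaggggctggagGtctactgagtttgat
In the Commd9 and Dok2 regions the CTCF match began at positions -239 and -236 counted from the summit, and in the Ralgds and Irf1 regions the first AP-1 word shown began at -227 and -224.

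H3K4me2 enrichment chose these regions, so its values are given as a description. Fold enrichment is the peak caller's ratio of ChIP signal to local background. In control cells it ranged from 2.15 to 28.7 over the regions with a median of 8.85, against 5.87 in the 26721 distal peaks that were kept after Pax6 shRNA but had no lens peak, and 16.1 in the 19560 shared peaks near promoters or H3K4me3. In Pax6 shRNA cells the median of the regions was 8.68 and in lens 6.85. Ranked within its own list, the median region stood at percentile 60.4 in control cells, 57.1 in Pax6 shRNA cells and 51.2 in lens. The regions thus sat in the middle of the whole lens list, which holds promoter and distal peaks together. The shared promoter-side peaks had a median lens percentile of 84.4. Distal lens peaks without a control αTN4 peak had a median lens fold of 4.74, below the 6.85 of the regions.

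The order of the regions was held between the αTN4 lists and much less between αTN4 and lens. Across the 6214 regions Spearman's rho was 0.85 between control and Pax6 shRNA fold and 0.23 between control and lens fold. The first pair shares the cell line, and the values describe peaks, which are not independent replicates. The summit moved by a median of 65 bp between control and Pax6 shRNA cells and by 149 bp between control cells and lens. Of the regions, 190 were at or above percentile 75 in all 3 lists, 160 reached it in control cells while lying at or below percentile 25 in lens, and 39 did the reverse.

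**Figure D1:**
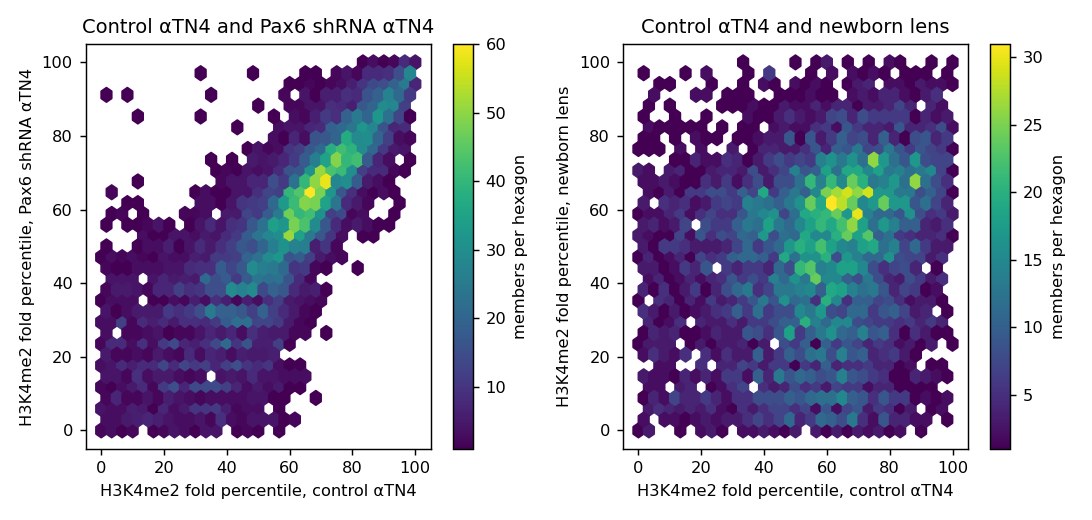
Each hexagon counts regions by their H3K4me2 fold percentile in control αTN4 cells (x axis) and in Pax6 shRNA αTN4 cells (left) or newborn lens (right), each percentile taken within its own peak list. The left cloud follows a rising line (rho 0.85), and the right cloud fills most of the square (rho 0.23).

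The region with the highest rank across the 3 lists, nearest to Tpt1, which encodes the translationally controlled tumour protein, spanned chr14:76232504-76237286. Its H3K4me2 fold was 25.7 in control cells, 26.7 in Pax6 shRNA cells and 31.3 in lens, and it overlapped a Pol2 peak of 24.2-fold. The next, in an intron of Dlgap1 (a synaptic scaffold) at chr17:71102456-71105184 and nearest to the start of Tgif1, a repressor in TGF-β signalling, had folds of 28.0, 36.1 and 28.4 in the same order. The third, 3.13 kb from the stress gene Sesn2, had folds of 24.3, 27.4 and 28.0 and lay in no H3K4me1 island in either αTN4 line.

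The other 7 of the top 10 were nearest to Otol1, Mrpl45, Nfam1, Kctd17, Zfp930, Wapal and Abcc12, with control folds from 19.4 to 26.9 and lens folds from 25.5 to 33.4. Of these 10 strongest regions, those nearest Sesn2, Otol1, Zfp930, Wapal and Abcc12 were outside H3K4me1 islands, and those nearest Tpt1, Tgif1, Mrpl45 and Kctd17 were inside islands in both αTN4 lines. The region nearest Nfam1 had an island in control cells alone. Strong dimethylation shared by all 3 lists thus occurred with and without monomethylation called around it.

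At the limits of the rule, the regions just inside the start distance lay 2002 bp from Asb5 and 2010 bp from Krt8, and peaks 1993 bp from Il33 and 1997 bp from Gm10037 fell just outside. For the H3K4me3 distance, regions near Smarcd3 (2004 bp) and Tia1 (2014 bp) were in and peaks near Cerk (1992 bp) and Dot1l (1999 bp) were out. The smallest overlap with lens was 2 bp, at the same region near Asb5, and a peak near Asap1 that abutted a lens peak with a gap of 0 bp was left out. The smallest overlap with a Pax6 shRNA peak was 1 bp, near Pecr and Rasa3. Lens peaks covered a median of 64.0% of a region and Pax6 shRNA peaks 86.1%.

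H3K4me1 was not used to choose the regions. In control cells 4101 of the 6214 (66.0%, interval 64.8 to 67.2) overlapped an H3K4me1 island, a broad block of enrichment, against 63.6% of all control H3K4me2 peaks. The share lay between those of the distal peaks absent from lens, 78.3%, and of the shared promoter-side peaks, 42.9%. The regions therefore carried H3K4me1 less often than their closest counterparts, by 12.3 percentage points (a difference of -12.3, interval -13.6 to -11.0), although their H3K4me2 was stronger. Counting only regions at least 50% covered by both lens and Pax6 shRNA peaks left 3634 of them, with H3K4me1 at 55.8% and a difference of -23.0 points. The comparison set changed under that rule too. Among regions H3K4me1 rose with control peak width, from 36.8% in the narrowest of 5 width groups to 93.0% in the widest. The part of width in the larger difference was not tested.

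The gap was found at each level of H3K4me2. With both distal sets pooled and divided into 5 equal groups by control fold, the weakest group had H3K4me1 at 61.2% of regions and 65.9% of peaks absent from lens, and the strongest group at 74.1% and 94.1%. The difference was -4.71 points (interval -9.06 to -0.508) in the weakest group and between -25.8 and -15.8 points in the other 4. When the sets were divided by width instead, it lay between -26.3 and -4.97 points.

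After Pax6 shRNA, 2689 regions (43.3%, interval 42.0 to 44.5) overlapped an H3K4me1 island, against 36.8% of all control H3K4me2 peaks. Regions had it in both lines in 2628 cases, in neither in 2052, in control cells alone in 1473 and in Pax6 shRNA cells alone in 61. Of the regions with H3K4me1 in control cells 64.1% kept it, beside 56.1% of all control peaks, 61.6% of the peaks absent from lens and 39.8% of the promoter-side peaks. The comparison with peaks absent from lens turned with strength, in groups examined after the values were seen. In the weakest of the 5 fold groups 67.2% of regions and 54.5% of peaks absent from lens kept it, and in the strongest 66.8% and 78.3%, a difference of -11.5 points (interval -13.95 to -9.01). In the widest of the 5 width groups the shares were 77.2% and 81.8%. The Pax6 shRNA list as a whole was shorter, with 18417 islands to 38007 in control cells. The part of sequencing depth in this was not tested.

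Within islands called in both lines the read density over whole islands that held a region moved much like that elsewhere. Control islands with a region had a median width of 4400 bp, against 1052 bp for a region. A change confined to the regions may therefore not show, and islands without a partner are left out. Of 3616 control islands that held a region, 2326 (64.3%) overlapped a Pax6 shRNA island. For the 1665 that paired with exactly 1, the median log2 change of reads per kb was -0.05 relative to all 13763 such pairs, whose own median was -0.31.

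**Figure D2:**
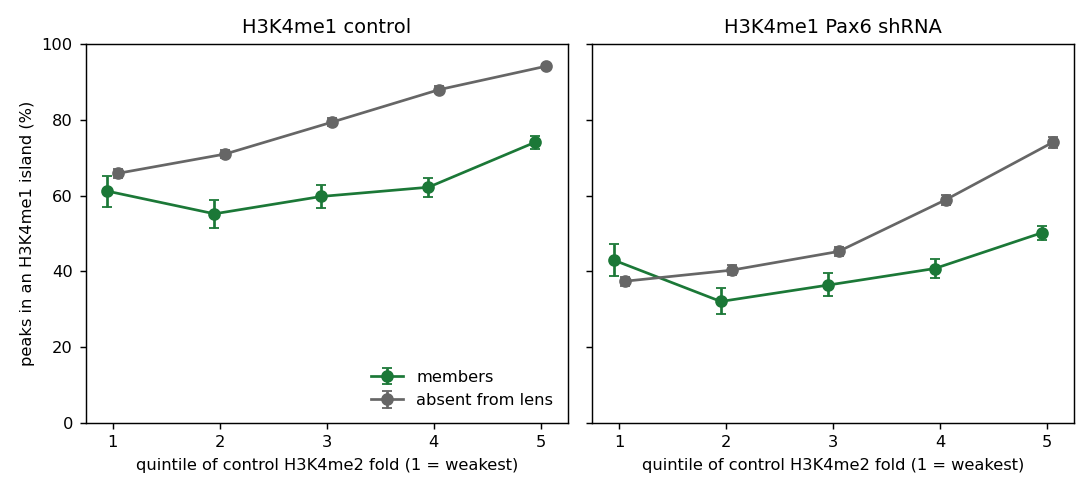
Share of H3K4me2 peaks in an H3K4me1 island (y axis, percent) in 5 equal groups of control H3K4me2 fold from weakest to strongest (x axis), for the regions (members, green) and the distal peaks absent from lens (grey), with 95% Wilson intervals as bars. In control cells the regions lie below the other set in each group, 61.2% to 65.9% in the weakest and 74.1% to 94.1% in the strongest, and after Pax6 shRNA the weakest group is the other way round, 42.9% to 37.4%.

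Pol2 peaks lay over 1180 regions (19.0%, interval 18.03 to 19.98) and 27.3% of all control H3K4me2 peaks, of which the shared promoter-side peaks reached 76.5%. Among distal peaks the regions stood higher. The share in peaks absent from lens was 5.30%, a difference of 13.7 points (interval 12.7 to 14.7). In the strongest of the 5 fold groups the shares were 36.4% and 22.1%, and in the weakest 1.86% and 0.595%. Regions with Pol2 were wider and stronger than those without, with a median width of 1648 bp to 949.5 bp and a median control fold of 14.2 to 7.92. They also had H3K4me1 more often, 80.9% to 62.5%.

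Some of the regions lay near starts of other transcripts. Of the 6214, 600 (9.66%) lay within 2 kb of an annotated start that is not protein-coding, against 4.55% of the peaks absent from lens. The most frequent kinds near regions were other transcripts of protein-coding genes with 230 regions, genes of processed transcripts with 107, lincRNAs with 87 and rRNAs with 53. For the rRNAs, the 5S gene cluster described below alone holds 48 regions. Without them 5614 regions were left, and their Pol2 share was 18.2%. H3K4me3 after Pax6 shRNA overlapped 38 regions (0.612%), beside 21.3% of all control H3K4me2 peaks, and since the rule removed control H3K4me3 nothing is read from this count.

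**Figure D3:**
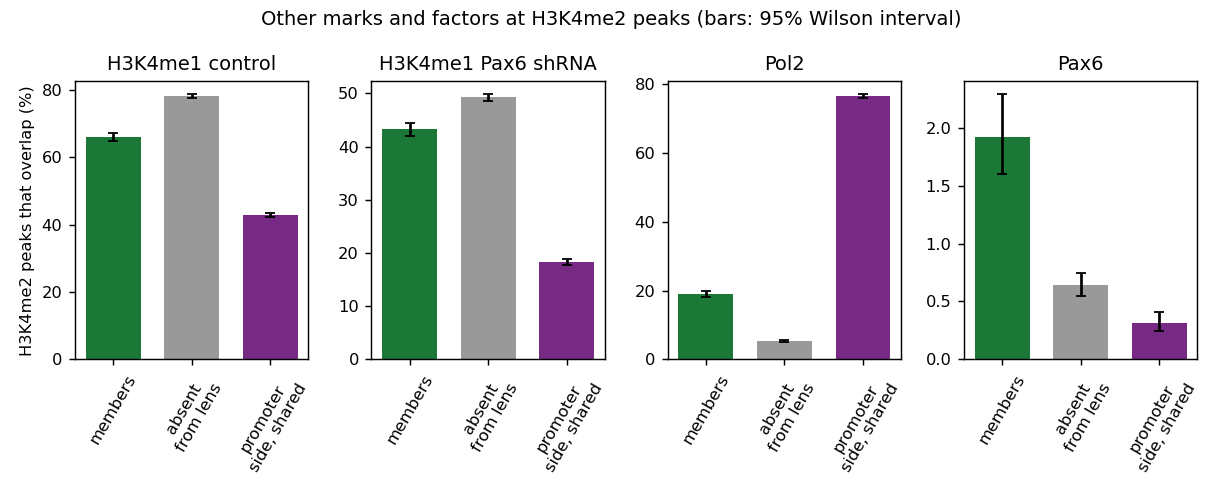
Share of H3K4me2 peaks (y axis, percent, with its own scale in each panel) that overlap an H3K4me1 island in control or Pax6 shRNA cells, a Pol2 peak or a Pax6 peak, for the regions (members), the distal peaks absent from lens and the shared promoter-side peaks, with 95% Wilson intervals. The regions are intermediate for H3K4me1 in control cells (66.0%) and Pol2 (19.0%) and highest for Pax6 (1.92%).

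The 2113 regions without control H3K4me1 differed from the others in several ways. Their median control width was 696 bp against 1311 bp, while the lens widths were close, 681 and 708 bp. Their lens percentile was higher, 59.0 to 47.6, although their control percentile was lower, 55.3 to 62.8. Introns held 28.5% of them and 48.0% of those with H3K4me1, and Pol2 lay over 10.6% and 23.3%.

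Their sequence differed as well. A CTCF consensus, searched on both strands within 350 bp of the summit, was present in 14.9% of the regions without H3K4me1 and 4.83% of those with it, a difference of 10.1 points (interval 8.44 to 11.7). Peaks absent from lens showed the same direction, with 4.29% without H3K4me1 and 1.13% with it. Over all regions the share was 8.25% (512 of 6209), beside 2.52% of all control H3K4me2 peaks, 1.82% of peaks absent from lens and 1.73% of promoter-side peaks. Distal lens-only peaks, those without a control αTN4 peak, had 1.80%, and windows of the same length moved by 1000 bp had 0.894%. The regions thus held the consensus more often than each of these sets. It was seen in 3.90% of regions in the weakest fold group and 8.95% in the strongest, against 1.72% and 1.93% of peaks absent from lens. By width it fell, from 13.3% of regions in the narrowest group to 3.36% in the widest. The shares in peaks absent from lens were 3.87% and 0.693%. Regions without H3K4me1 were also narrower, and the part of width in their CTCF share was not tested. A match is a description of sequence, and CTCF itself was not measured.

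CpG-rich summit windows, reaching 250 bp to either side with at least 50% GC and an observed over expected CpG ratio of at least 0.6, were found in 343 regions (5.52%), close to the 5.28% of all control H3K4me2 peaks. Among distal peaks absent from lens there were 12 (0.0449%), and among promoter-side peaks the share was 14.5%. The CpG-rich regions had a median percentile of 73.7 within the lens list and of 62.0 within the control list, beside 51.2 and 60.4 over all regions. They overlapped control H3K4me1 in 39.4% and Pol2 in 18.4%. With CpG-rich regions and those with a CTCF consensus left out of both distal sets, H3K4me1 was at 70.0% of regions and 78.8% of peaks absent from lens.

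For shorter sequence words the position of the summit mattered. The AP-1 word TGACTCA, searched on both strands, was in 3.46% of the windows reaching 100 bp to either side of the summits of the regions (interval 3.03 to 3.94), beside 5.97% of all control H3K4me2 peaks, and in 3.32% of windows 1000 bp away. In peaks absent from lens the summit share was 7.28%. The word was, however, most frequent between 200 and 300 bp on either side of the summit in both sets. In windows from 150 to 350 bp on either side, a choice made after that profile was seen, 16.7% of regions held it, beside 21.7% of all control H3K4me2 peaks and 6.97% of windows 750 to 950 bp out.

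In those flanking windows the distal sets separated. Peaks absent from lens held the AP-1 word in 33.7%, so the regions were lower by 16.9 points (a difference of -16.9, interval -17.98 to -15.8). Distal lens peaks absent from control αTN4 cells held it in 5.30%, below their own outer windows at 6.39%. Within the regions the share was 20.7% with control H3K4me1 and 9.10% without, 17.8% with Pol2 and 16.5% without, and 16.8% with Pax6 (20 of 119) and 16.7% without. The regions lay between the αTN4 and the lens sets.

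**Figure D4:**
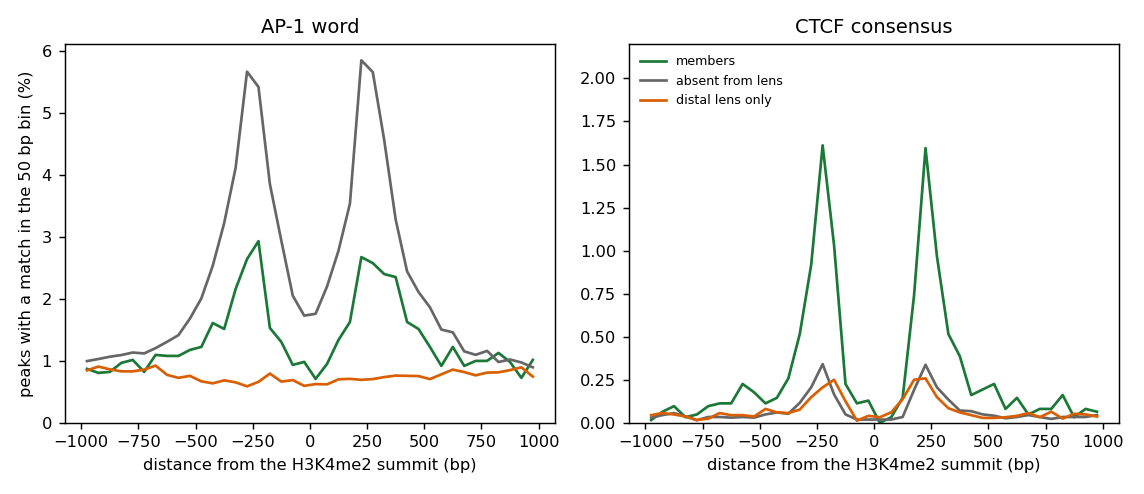
Share of peaks with a match starting in each 50 bp bin (y axis, percent) by distance from the H3K4me2 summit (x axis, bp), for the AP-1 word (left) and the CTCF consensus (right), over the regions (members), distal peaks absent from lens and distal lens peaks absent from control αTN4 cells (distal lens only), the last placed on their lens summits. AP-1 has maxima between 200 and 300 bp on either side in the regions and, higher, in peaks absent from lens, with none in lens-only peaks, and the CTCF consensus is highest in the regions (1.61% in the bin from 250 to 200 bp before the summit).

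Of the other words searched among 18 in all, the GC box GGGCGGG of Sp and KLF factors was in the flanking windows of 14.2% of regions, 3.79% of peaks absent from lens and 8.49% of distal lens-only peaks, beside 11.5% of all control H3K4me2 peaks and 24.1% of promoter-side peaks. It was at 12.3% in the regions that were not CpG-rich, and at 21.0% of regions with Pol2. The E-box CAGCTG was in 26.7% of regions, 20.4% of peaks absent from lens and 25.2% of lens-only peaks, beside 20.03% of all control peaks. The homeobox word TAATTA was in 9.73% of regions, no more than the 9.75% of all control peaks, in 10.7% of peaks absent from lens and in 15.02% of lens-only peaks. The Tead word GGAATGT was in 7.71% of regions, again near the 7.86% of all control peaks, with 9.97% of peaks absent from lens and 5.79% of lens-only peaks. The Runx word TGTGGTT was in 9.49% of regions, 11.3% of all control peaks, 14.2% of peaks absent from lens and 7.19% of lens-only peaks. In the regions' outer windows the GC box was at 4.95%, the E-box at 19.8% and the homeobox word at 10.6%. The Tead word was there at 5.36% and the Runx word at 9.55%. In those of peaks absent from lens the shares were, in the same order, 2.13%, 16.5%, 12.2%, 5.80% and 9.94%. Median GC within 250 bp of the summit was 49.9% in regions and 45.1% in peaks absent from lens. The part of base composition in these contrasts was not tested.

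Maf, Sox and Pax6 are factors well known in lens. The Maf word TGCTGAC was in 7.65% of regions, 7.44% of peaks absent from lens and 7.31% of lens-only peaks, and the difference from the second of these was 0.21 points (interval -0.505 to 0.96). The Maf word was in 6.66% of all control H3K4me2 peaks. Its share in the regions differed from their own outer windows, at 5.73%, by 1.92 points (interval 1.04 to 2.80). The Sox word ACAATGG was less frequent in regions, at 4.75%, than in peaks absent from lens, at 5.92% (a difference of -1.17 points, interval -1.74 to -0.543), and lens-only peaks, at 6.45% (-1.70 points, interval -2.29 to -1.06), and it was in 4.96% of all control H3K4me2 peaks. The Pax6 word TTCANGCNT was in 4.43%, 4.94% and 5.03%, beside 4.56% of all control H3K4me2 peaks, and its share in the regions differed from their own outer windows by -0.18 points (interval -0.911 to 0.554).

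Pax6 itself was bound at 119 regions (1.92%, interval 1.60 to 2.29), beside 0.576% of all control H3K4me2 peaks, 0.640% of peaks absent from lens and 0.317% of promoter-side peaks. The αTN4 list held 504 Pax6 peaks in all, of which 121 touched a region. In the strongest fold group 3.14% of regions and 1.62% of peaks absent from lens had Pax6. From fold group 1, the weakest, to 4 the difference was 0.71 points (interval 0.16 to 1.95), 0.55 (0.046 to 1.58), 0.26 (-0.16 to 1.03) and 0.35 (-0.21 to 1.14). By width it ran from 0.18 points (interval -0.031 to 0.84) in the narrowest group to 2.62 (interval 1.67 to 3.71) in the widest. Of the 119 bound regions 114 had H3K4me1 in control cells and 96 of those kept it after Pax6 shRNA (84.2%, interval 76.4 to 89.8). Regions without Pax6 kept it in 63.5%, so the bound ones kept it more often by 20.7 points (interval 12.8 to 26.5). Peaks absent from lens showed much the same, 82.3% with Pax6 and 61.4% without. In islands called in both lines that held a region, the median log2 change of read density relative to all pairs was -0.08 with a Pax6 peak (63 pairs) and -0.05 without. The bound regions were also stronger and wider, with a median control fold of 12.9 to 8.74 and a width of 1833 to 1043 bp, and the part of these in the difference was not tested. Pol2 lay over 41 of them (34.5%).

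The strongest Pax6 peak over a region, 164 kb from the centrosomal gene Nedd1 at chr10:92018216-92021164, had a Pax6 fold of 21.0 and a -log10 q of 59.4. This region had H3K4me2 folds of 15.8 in control cells, 8.36 in Pax6 shRNA cells and 11.6 in lens, and its H3K4me1 island of 22.1 reads per kb in control cells had no counterpart after Pax6 shRNA. The next, chr7:137980748-137982989, lies 26.3 kb from the start of Plekha1, which encodes a phosphoinositide-binding adaptor. The annotation used here also places it in an intron of a transcript of Fgfr2, a receptor for FGF in lens cells. All 3 regions near Plekha1 had that label, the nearest of them 2.49 kb from the Plekha1 start. This Pax6-bound region had a Pax6 fold of 18.2, and H3K4me2 folds of 11.97, 13.9 and 10.5 in control, Pax6 shRNA and lens. Its H3K4me1 island held 30.5 reads per kb in control cells and 23.5 after Pax6 shRNA. These are counts over the whole island. All 13763 island pairs had a median log2 change of -0.31, and whether this site departs from that was not tested. The study calls this site region A and places it upstream of Plekha1. It reports lower H3K4me1 and H3K4me2 signal there after Pax6 knockdown. The peak caller's fold over local background is another measure than that signal.

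The region in an intron of Sgpp2, a sphingosine 1-phosphate phosphatase, had a Pax6 fold of 18.9 with H3K4me2 folds of 14.95, 13.2 and 5.003, and H3K4me1 at 31.5 and 21.3 reads per kb. A further Dlgap1 intron region, at chr17:71087900-71089732, had a Pax6 fold of 18.7 and H3K4me1 at 33.1 and 27.9 reads per kb. The region 37.3 kb from Gmpr, a GMP reductase, had a Pax6 fold of 16.8 and H3K4me1 at 14.8 and 12.9 reads per kb. Of these 5 regions, the one near Nedd1 alone lost its H3K4me1 island. Their island densities are likewise not corrected for the median log2 change of -0.31 over all island pairs.

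Around genes that the study examined, Plekha1, Farp1 (a FERM-domain exchange factor) and Tshz2 (a zinc-finger homeobox factor) had 3 regions each within 50 kb of a start, Prox1 had 2, and Cap2 (an actin regulator) and Zfp536 had 1 each. The Cap2 region, in an intron, had a control H3K4me2 fold of 20.3, 14.6 after Pax6 shRNA and 4.52 in lens, with a Pax6 fold of 6.06. One Farp1 intron region had a Pax6 fold of 7.81 and H3K4me2 folds of 14.7, 9.73 and 3.69. Prox1, the homeobox factor of fibre cell differentiation, had an intron region of 19.0-, 26.4- and 9.74-fold with no Pax6 peak. No region lay within 50 kb of the start of Pax6 itself, where there were 10 distal lens H3K4me2 peaks without a control αTN4 peak. Whether Pax6 shRNA cells had peaks there was not checked.

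Most regions were alone. When regions at most 10 kb apart were joined, 4330 stood singly and 1884 formed 788 runs. The longest run held 48 regions over 87341 bp, chr8:126061249-126148589, and covers the annotated 5S rRNA gene cluster, with 51 rRNA starts. There 97.5% of 31-base words occurred more than once within the run, most often 1691 bp apart, so reads of that length from its copies cannot be told apart. Control folds in it were 3.81 to 11.1 and lens folds 4.74 to 13.2. Of its 48 regions 47 lay in control H3K4me1 islands, and none had Pol2 or Pax6. Its counts carry over to the genes that topped the list by regions within 50 kb, Gas8 with 16 and Dbndd1 and Rhou with 13 each.

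The second run, 8 regions at chr4:137028649-137057011, lay within Hspg2, which encodes perlecan, a proteoglycan of basement membranes such as the lens capsule. All 8 had H3K4me1 in control cells and 7 after Pax6 shRNA, with control folds of 5.52 to 18.02 and lens folds of 3.69 to 8.95. A run of 7 at chr2:30546724-30568946, near Cstad, differed in that each region had Pol2 and H3K4me1 in both lines, with control folds of 11.1 to 27.2. A run of 7 in Atf7ip had H3K4me1 at 5 regions in control cells and at none after Pax6 shRNA.

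Runs of 6 came next. The most compact of them, 6 regions in 2887 bp at chr11:18777044-18779930, lay within 10 kb of the body of Meis1, a TALE homeobox gene active in lens, and had no H3K4me1, with lens folds up to 27.9. Another, at chr6:47604767-47623515 and nearest to Ezh2, was again repetitive, with 98.0% of 31-base words repeated, 40.02 input reads per kb against a median of 12.8 over all control islands, and lens folds of 20.3 to 35.7. After the genes at the 5S cluster, those with most regions within 50 kb were 1700013G24Rik, Hspg2, Mrps23 and Nuak2 with 9 each, and Atf7ip, Ccdc85c, Cstad, Klhdc8a, Mid1, Pxn and Slc38a3 with 8 each. Neighbouring genes can count the same regions. The counts and fold ranges of 1700013G24Rik and Hspg2 were identical, and Nuak2 and Klhdc8a had the same control fold range.

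By position, 3453 regions were intergenic, 2569 intronic and 192 exonic, and the median distance to a protein-coding start was 24.9 kb. H3K4me1 was at 76.6% of intronic and 58.4% of intergenic regions, a difference of 18.2 points (interval 15.8 to 20.5). Pol2 went the other way, with 13.5% of intronic and 22.7% of intergenic regions. The gap to the peaks absent from lens was also wider outside genes, -16.2 points for H3K4me1 between intergenic sets and -6.43 between intronic ones.

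Of 22208 protein-coding genes, 5914 (26.6%) had at least 1 region within 50 kb of a start. Signalling and cytoskeletal lists stood above this. Among FGF receptors and feedback genes 11 of 16 had a region, with 3 each at Fgfr2, Fgfr4 and Spry2, the last an inhibitor of receptor signalling. Among actin and adhesion genes there were 16 of 24, led by Pxn (paxillin, of focal adhesions) with 8 and Myh9 (non-muscle myosin) with 4. In the YAP and TEAD pathway there were 8 of 12, led by Tead1 with 5, in the Notch pathway 9 of 15, led by the coactivator gene Maml3 with 7 and the receptor gene Notch1 with 5, and in the AP-1 family 6 of 10, led by Fosb with 5. These lists stood above all genes for the other distal sets too. Peaks absent from lens were near 60% (AP-1 family) to 91.7% (actin and adhesion) of their genes, beside 54.5% of all genes. For lens-only peaks the range was 54.2% (actin and adhesion) to 90% (AP-1 family), beside 47.6%.

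Lens genes were mixed. Crystallins, the structural proteins of the lens, had a region in 10 of 16, but the γ-crystallin genes lie side by side, and Cryga, Crygb, Crygc and Crygd shared 1 region of 20.8-fold in control cells and 7.68-fold in lens. Cryba4 and Crybb1 likewise shared 2, of which 1 had Pax6. Peaks absent from lens were near 7 of the 16 crystallin genes and lens-only peaks near 14. Of all protein-coding genes 54.5% had a peak absent from lens and 47.6% a lens-only peak in that range. At their promoters 11 of 16 crystallin genes had H3K4me2 in lens and 5 in control cells, beside 66.9% and 58.3% of all protein-coding genes.

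Lens transcription factors had a region in 12 of 25, led by Lef1, Meis2 and Tshz2 with 3 each, and 24 of 25 had a lens-only peak. Lens fibre membrane and cytoskeleton genes had one in 9 of 20, led by Epha2, an ephrin receptor kinase, with 6, and TGF-β and BMP genes in 11 of 23, led by Smad3 with 6. Markers of other cell types that lens or the line could hold came to 8 of 17 for blood and endothelium, 7 of 15 for mesenchyme and fibroblast, 6 of 18 for muscle and liver and 5 of 20 for retina and neuron, and housekeeping genes to 5 of 20, led by Rplp0 with 6. Several of these lists also stand above 26.6%, and their promoters had H3K4me2 in control cells in 4 of 17 blood and endothelium genes and 12 of 15 mesenchyme and fibroblast genes, beside the 58.3% of all genes. The lists are small, were chosen with results of these data known and carry no test.

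**Figure D5:**
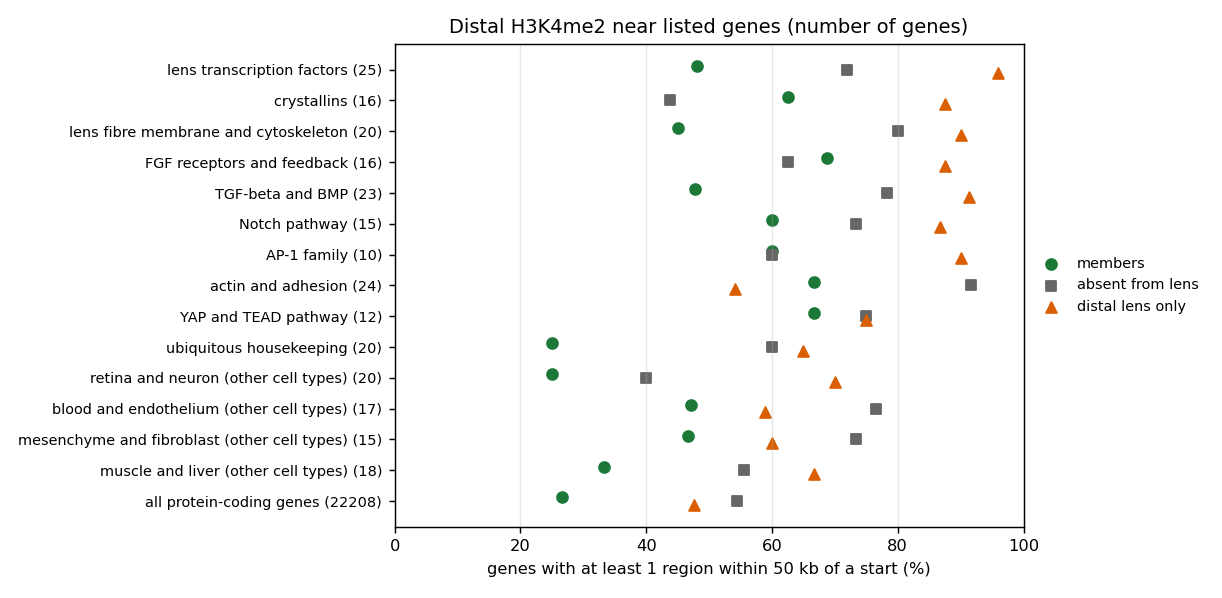
Share of the genes in each list (x axis, percent, number of genes in brackets) with at least 1 region (members, circles), distal peak absent from lens (squares) or distal lens-only peak (triangles) within 50 kb of a start. For the regions the lists run from 25% (housekeeping, retina and neuron) to 68.75% (FGF receptors and feedback), beside 26.6% of all protein-coding genes.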

How the data were processed

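ChIP-seq lists of control and Pax6 shRNA αTN4 cells and of newborn lens were used by library title (the antibody fields of the libraries titled Pax6 and Pol2 name each other's antibody). Per the study's methods, the authors used Bowtie for alignment to mm9, called Pax6, Pol2, H3K4me2 and H3K4me3 peaks with MACS2 and H3K4me1 islands with SICER, both at default settings, and removed peaks in blacklisted regions. Versions are not given in the sources used here. The deposited MACS2 lists give each peak's fold enrichment (a ratio to local background), its summit, and its p-value and q-value as −log10. The deposited SICER lists give read counts in each island for the ChIP and for a control library that is not named (called input here), with a p-value and an FDR. Peak names in the control H3K4me2 list hint that replicates were pooled. The depth behind the MACS2 lists is unknown, so thresholds may differ between lists, and a region without a peak may still carry the mark. Pax6 mRNA and the other RNA-seq values were not analysed here, so the knockdown itself was not checked.

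Positions were handled 1-based. Starts, genes and rRNA genes came from GENCODE vM1 (51733 protein-coding transcripts), and sequence from mm9. A percentile is the rank of a peak's fold within its own list, taking the strongest overlapping peak. Features overlapped by at least 1 bp. Words were searched on both strands in windows around control summits (18 words and a 13-base CTCF consensus with alternative letters), and windows that ran off the sequence or held unknown bases were left out. Genes were given regions within 50 kb of a start, counted once per symbol. Shares carry 95% Wilson and differences 95% Newcombe intervals (pysam 0.24.0 and samtools 1.23.1 for sequence, pandas 2.3.3, SciPy 1.17.1 and NumPy 2.4.6 under Python 3.11.15). The overlap, interval and search code was tested on simulated data. Results were recomputed under other overlaps, distances, significance limits and windows. Regions named are the 10 with the highest lowest-of-3 percentile, the 5 with the highest Pax6 −log10 q, those near genes of the study, the longest runs, the genes with most regions, up to 4 genes a list, and those at each limit of the rule. The regions, gene lists, words and comparisons were chosen with earlier results of these data known. Some were added after the values were seen, namely the examples of word positions, the CTCF window and the flanking windows.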

Additional observations from a re-analysis of the deposited data

How the results depend on the processing

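No paired analysis was possible because the results come from no test and each condition has 1 list. Of 72 recomputed values 50 moved by less than counting error or 1.5 times, and 22 moved further. Most were counts or shares, which have no direction, and the differences among them kept their sign. With at least 50% of each control peak covered by lens and by Pax6 shRNA peaks, 3634 regions were left, with H3K4me1 at 55.8% in control and 32.9% in Pax6 shRNA cells and a difference from peaks absent from lens of -23.0 points. With −log10 q of at least 5 in all 3 H3K4me2 lists, Pol2 was at 21.4% and that difference at -16.0 points. Under both of these settings the set of peaks absent from lens changed as well. With no H3K4me3 of either line within 5 kb, Pol2 was at 17.8%. With H3K4me1 FDR of at most 1e-06 the H3K4me1 shares were 64.5% and 41.4%, and with 50% of the peak inside islands 64.3% and 41.3%. Pol2 was at 20.7% within 1 kb and at 17.6% with −log10 q of at least 5. The AP-1 word was at 13.7% within 250 bp of the summit (difference from peaks absent from lens -14.7 points) and at 7.68% within 100 bp of the peak midpoint (-9.29).

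The following were chosen after seeing the data. Without CpG-rich windows and CTCF consensus the H3K4me1 shares were 70.0% and 46.7% and the difference -8.83 points. In windows 150 to 350 bp from the summit the AP-1 word was at 16.7% and the difference -16.9 points. Without the 5S rRNA gene cluster 6166 regions and 5911 genes near them were left, and no share moved beyond counting error.

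Lists without replicates give no estimate of biological error. The depth of the lens and αTN4 lists is unknown, so peaks absent from lens are those not called in this lens list, and no difference from them can be freed of the depth of either list. Regions in repeats rest on reads that cannot be placed uniquely.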

Other observations

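The regions were unevenly spread over the chromosomes. Chromosome 11 held 499 of the 6214, which is 4.10 per Mb and 18.2% of its distal control H3K4me2 peaks. Chromosome 2 held the most, 517, at 2.84 per Mb and 13.3% of its distal peaks, and the X chromosome held 104, at 0.624 per Mb and 11.1%. The density thus varied more between chromosomes than the share of distal peaks did, which ran from 11.1% on the X chromosome to 18.7% on chromosome 18.

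At Pax6 summits within the regions the AP-1 word lay within 100 bp in 17 of 121 (14.0%, interval 8.96 to 21.4), the Pax6 word in 8 (6.61%, interval 3.39 to 12.5) and the E-box in 29 (24.0%, interval 17.2 to 32.3). At the other 383 Pax6 peaks the shares were 16.7%, 8.36% and 18.02%, within these intervals. The median fold was 7.41 at Pax6 peaks in regions and 6.78 at the others.

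Combining the marks, 1884 regions had neither H3K4me1, Pol2 nor Pax6 in control cells, with a median control fold of 7.47 and lens fold of 8.43. The 40 that had all of these had medians of 14.1 and 7.42 and a width of 2499 bp, and 3072 regions had H3K4me1 without Pol2 or Pax6.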
